A study of Rattus norvegicus with 16 samples.

Results

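The genes described here are 36 microglial markers and inflammatory mediators, read in CA1 of the rat hippocampus 1 week after an early-life seizure. Members were the rows of the deposited isoform table that carry one of the 36 gene symbols: 33 symbols had a row, with 41 isoforms of 21698 in the table, and the table's 21698 isoforms fall under 16602 symbols. No row carried the name Itgam, Siglech or Il6, so these 3 have no expression values here. The study compared 8 male Sprague-Dawley rats injected subcutaneously with kainate, an agonist of kainate-type glutamate receptors that provokes seizures, at 2 mg per kg on postnatal day 7 with 8 given saline on the same day. All 16 animals were killed on postnatal day 14 and the labels state that every rat given kainate had seizures. Total RNA came from dorsal CA1 cut out of brain slices that had recovered in artificial cerebrospinal fluid, with cortex and dentate gyrus still attached during the recovery, and both groups shared this incubation.

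Microglia are the resident macrophages of the brain. They survey the tissue with fine processes, engulf synaptic material during postnatal development with the help of complement proteins, and release cytokines such as interleukin-1 beta and tumour necrosis factor when they are activated. In hippocampus, seizures are known to activate microglia and to induce these cytokines within hours to days. The receptor for colony-stimulating factor 1 keeps microglia alive, and the transcription factor PU.1 switches on many of their genes.

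One week after the seizure, no microglial or inflammatory gene passed a test of kainate against control across the table. Of the 33 gene totals, 0 had an adjusted p under 0.05 by limma with Benjamini-Hochberg adjustment, the same as for all 16602 genes, of which 0% were called. Of the 41 isoforms 0 were called, and 0% of the 21698 isoforms in the table. The differences were small in both directions: 12 members had a higher mean and 21 a lower mean in kainate, and the median difference was -0.010 on the deposited log2 scale, against -0.0017 over all genes. In no member were the 2 groups of 8 libraries fully apart (0% of all genes). The intervals bound the size on the deposited scale only: for 26 of 33 members the 95% interval of the difference lay within 0.2 log2 units of 0. The intervals of the other 7, Aif1, C1qa, C1qc, Tyrobp, Tnf, Ccl3 and Nfkbia, reached beyond it. With the replicate number as a block in the fit, 32 of 33 intervals lay within that bound, and Tnf was the 1 that did not. Values are log2 values of the authors, and a gene total is the log2 of its summed isoforms. Isoforms with few reads appear to be drawn towards a floor of their own on this scale, so their differences may be understated. The transform is not given, and this was not tested. For Pirb the difference was 0.042 here, against an authors' log2 fold change of 0.095, and for Il1b -0.020, against -0.068. The authors' log2 fold changes also departed from these differences for members with more reads. They were -0.125 for Ctss and -0.104 for Tyrobp, against -0.092 and -0.070 here, and -0.0019 for Tnf, against -0.063. The bound therefore need not hold for the authors' fold changes. In bulk tissue, fewer microglia and less RNA of a gene per microglial cell cannot be told apart.

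**Figure D1:**
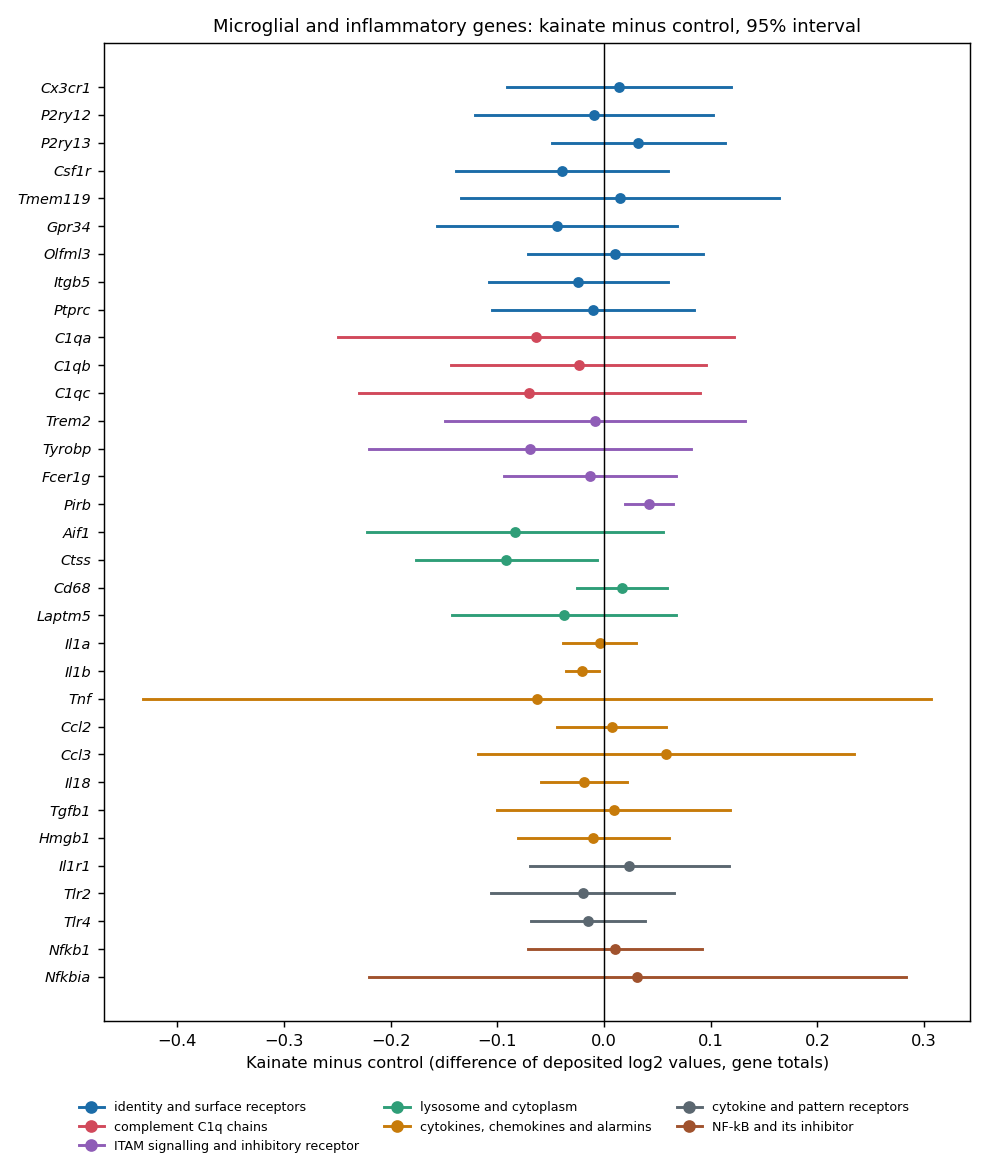
Difference between kainate and control (horizontal axis, deposited log2 scale) for the 33 gene totals, as a point with its 95% interval from limma, n = 8 rats in each group, coloured by role. Most points lie close to 0, and Tnf and Nfkbia have the widest intervals. The short intervals of Pirb and Il1b belong to genes with few reads, whose values appear compressed.

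At an unadjusted p under 0.05, a level at which nothing is called here, 3 of 33 gene totals stood out by limma (9.09%, against 1.39% of all genes). These were Ctss and Il1b, with lower means in kainate, and Pirb, with a higher mean. When the replicate number that a kainate and a control library share in the labels was added as a block, 5 of 33 did so (15.2%, against 6.6% of all genes), with Aif1 and C1qc as the 2 added genes. The smallest adjusted p of a member was 1.00 without the block and 0.750 with it. In the authors' deposited table, 3 of 41 member isoforms had an unadjusted p under 0.05 (7.32%, against 5.66% of all isoforms): Ctss with a kainate to control ratio of 0.917 (p = 0.0220), C1qc with a ratio of 0.929 (p = 0.0388) and Pirb with a ratio of 1.07 (p = 0.0133).

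Microglial RNA was well represented. Of 21 markers 19 had a row, and the authors' mean normalized counts for these ran from 62.3 for Cd68 to 6385 for Csf1r. Wfs1, a marker of CA1 pyramidal cells, had a log2 level of 15.19 ± 0.15 (SD, n = 8) in kainate and 15.09 ± 0.096 (SD, n = 8) in control rats. Prox1, a marker of dentate granule cells, was detected too, at 11.39 ± 0.25 (SD, n = 8) in kainate and 11.16 ± 0.20 (SD, n = 8) in control rats, so the tissue held RNA from more than CA1 pyramidal cells. The Prox1 difference was 0.23 ± 0.10 (SE, n = 8 per group), larger than that of any member. Its unadjusted p by limma was 0.040, and 0.0055 with the replicate number as a block. It was not called in either fit. Of 10 lymphocyte markers 2 had a row, and of 10 monocyte and neutrophil markers 6 had one. Among the other cell types, all 8 myelin genes had a lower mean in kainate (median difference -0.12) and all 8 neuronal genes a higher mean (median difference 0.074), with 0 of either list called by limma at an adjusted p under 0.05. Their part in the differences of the microglial genes was not tested.

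Most of the 19 markers had a lower mean in kainate, by small amounts. A lower mean was seen for 14 of 19 (73.7%, against 52.4% of all genes), and the median difference was -0.024, with single genes between -0.092 and 0.032. The mean over the 19 markers was 9.61 ± 0.052 (SD, n = 8) in kainate and 9.64 ± 0.083 (SD, n = 8) in control libraries, and the libraries overlapped, at 9.54 to 9.71 and 9.53 to 9.80. The median rested in part on single libraries: it was -0.0080 without control 7 and -0.011 without kainate 3, and -0.044 without kainate 7 or without control 3.

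Genes that mark microglial identity split nearly evenly. Of the 9 measured identity and surface genes, 4 had a higher and 5 a lower mean in kainate, with a median difference of -0.0092. P2ry12, the ADP receptor that guides microglial processes to injury, ran from 10.44 over a median of 10.67 to 10.78 in kainate and from 10.47 over 10.66 to 10.81 in control libraries. Cx3cr1, the receptor for the neuronal chemokine fractalkine, ran from 10.07 over 10.12 to 10.34 in kainate and from 9.96 over 10.14 to 10.29 in control libraries. The values of both receptors overlapped almost completely, with differences of -0.0092 ± 0.053 (SE, n = 8 per group) for P2ry12 and 0.014 ± 0.050 (SE, n = 8 per group) for Cx3cr1. Tmem119, a membrane protein used to tell microglia from blood-derived macrophages, ran from 9.52 over 9.82 to 9.91 in kainate and from 9.58 over 9.76 to 10.02 in control libraries. Csf1r, the receptor that sustains microglia, ran from 12.45 over 12.63 to 12.72 in kainate and from 12.50 over 12.67 to 12.82 in control libraries. The interval for Csf1r, -0.14 to 0.060 around a difference of -0.039, and that for Tmem119, -0.13 to 0.16 around 0.015, included 0. Without control 7 the Csf1r difference was -0.015, without kainate 3 it was -0.017, and without control 3 it was -0.062. The remaining surface genes were as close: the ADP receptor gene P2ry13 differed by 0.032 ± 0.039 (SE), the lysophospholipid receptor gene Gpr34 by -0.044 ± 0.053 (SE), the integrin gene Itgb5 by -0.024 ± 0.040 (SE), Ptprc, which encodes the leukocyte antigen CD45, by -0.010 ± 0.045 (SE) and Olfml3 by 0.011 ± 0.039 (SE), each over 8 rats per group.

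**Figure D2:**
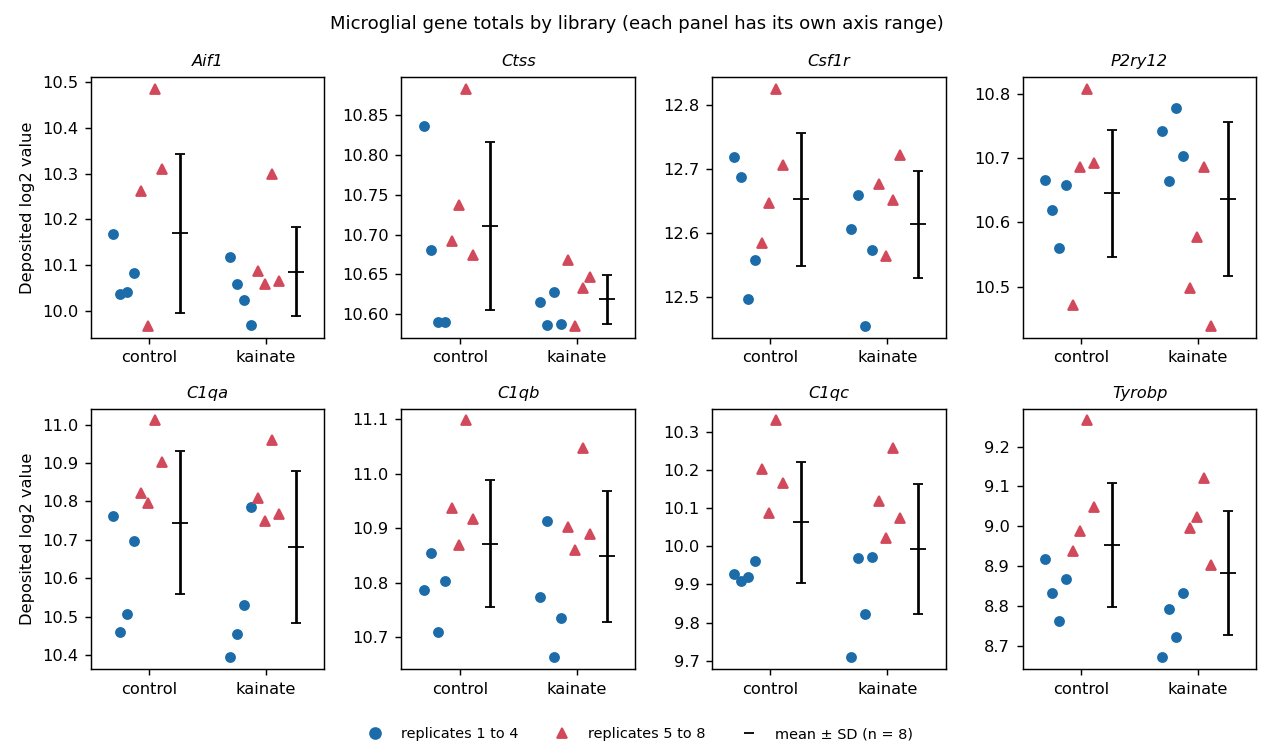
Deposited log2 gene totals of 8 microglial markers (vertical axes, each panel with its own range) in 8 control and 8 kainate libraries, with circles for replicates 1 to 4, triangles for replicates 5 to 8 and the mean ± SD of each group. Control 7 is the highest point in all 8 panels, and for C1qc every triangle lies above every circle.

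The 3 chains of C1q, the molecule that starts the classical complement cascade and tags synapses for removal, had lower means in kainate, by less than the spread among animals. C1qa ran from 10.39 in kainate 1 over a median of 10.76 to 10.96 in kainate 7, and from 10.46 in control 2 over 10.78 to 11.01 in control 7. C1qc ran from 9.71 over 10.00 to 10.26 in the same kainate libraries, and from 9.91 over 10.03 to 10.33 in control libraries. For both chains replicate 7 was the highest of its group in kainate and control alike. C1qb ran from 10.66 over 10.87 to 11.05 in kainate and from 10.71 over 10.86 to 11.10 in control libraries. The differences were -0.064 ± 0.088 for C1qa, -0.024 ± 0.057 for C1qb and -0.070 ± 0.076 for C1qc (SE, n = 8 per group). All 3 intervals of these differences, from the fit without the replicate number as a block, included 0. Single libraries moved these values: without kainate 1 the differences of C1qa and C1qc became -0.023 and -0.029, without kainate 7 they became -0.10 and -0.11, and without control 7 they became -0.026 and -0.032, while that of C1qb became 0.0085. Other libraries that moved a chain by over 1.5 times were kainate 2, 3 and 4 and control 1, 2, 3, 5 and 8, over a range of -0.10 to -0.023 for C1qa and -0.052 to 0.0085 for C1qb. Within same-numbered pairs the kainate rat was lower in 6 of 8 for C1qa and C1qc and in 7 of 8 for C1qb; at 7 or more of 8 stood 5.51% of all genes. With the replicate number as a block, the C1qc interval was -0.14 to -0.0037, whereas those of C1qa and C1qb included 0. The unadjusted p of C1qc by limma with that block was 0.0402, and its adjusted p was 0.750. Of 15 measured genes of the rest of the complement system, 10 had a higher and 5 a lower mean, and 0 were called. C3, the central component, differed by -0.10 ± 0.062 (SE, n = 8 per group) and C2, a protease of the classical pathway, by -0.11 ± 0.073 (SE, n = 8 per group). With the block, the unadjusted p by limma was 0.038 for C3 and 0.013 for C2, and the adjusted p was 0.750 for both. They were the 2 of these 15 genes under 0.05 in that fit, against 6.6% of all genes.

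The lysosomal and cytoplasmic markers held the largest differences among the markers. Ctss, which encodes cathepsin S, a protease for antigen processing, ran from 10.59 over a median of 10.62 to 10.67 in kainate and from 10.59 over 10.69 to 10.88 in control libraries. The kainate libraries were tightly grouped at the low end of the control range, with an SD of 0.031 against 0.11. The difference was -0.092 ± 0.040 (SE, n = 8 per group), lower in 7 of 8 pairs, with an interval of 0.885 to 0.995 as a ratio, a limma p of 0.0356 before and 1.00 after adjustment. Without control 7, the highest library, the difference was -0.067, and over the fits that each left out 1 library the unadjusted p ran from 0.014 to 0.081. Aif1, which encodes the actin-binding protein Iba1 used to stain microglia, ran from 9.97 in kainate 4 over 10.06 to 10.30 in kainate 7, and from 9.97 in control 6 over 10.13 to 10.48 in control 7. Its difference of -0.084 ± 0.066 (SE, n = 8 per group) became -0.039 when control 7 was left out. With the replicate number as a block its unadjusted p was 0.0441 in place of 0.220, and it was not called in either fit. Cd68, a lysosomal glycoprotein that is raised in phagocytic microglia, differed by 0.017 ± 0.020 (SE), and Laptm5, a lysosomal membrane protein of blood-lineage cells, by -0.037 ± 0.050 (SE), both over 8 rats per group.

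Receptors that signal through the activating motif ITAM had lower means in kainate, by less than the spread among animals. Trem2, a lipid sensor of microglia, ran from 8.47 over a median of 8.71 to 8.84 in kainate and from 8.47 over 8.75 to 8.94 in control libraries, a difference of -0.0086 ± 0.067 (SE, n = 8 per group). Its adaptor Tyrobp ran from 8.67 in kainate 1 over 8.87 to 9.12 in kainate 7, and from 8.76 in control 3 over 8.93 to 9.27 in control 7. The Tyrobp difference of -0.070 ± 0.072 (SE, n = 8 per group) had an interval of -0.22 to 0.081 and became -0.025 without control 7 and -0.040 without kainate 1, and that of the Fc receptor chain Fcer1g was -0.013 ± 0.038 (SE, n = 8 per group). Of 14 measured genes known to be raised in microglia around amyloid or dying cells, 3 had a higher and 11 a lower mean in kainate, with a median difference of -0.022 and 0 called. Spp1, a secreted matrix protein, differed by -0.045 ± 0.022 (SE, n = 8 per group) and Ctsz, a lysosomal protease, by -0.098 ± 0.055 (SE, n = 8 per group). With the replicate number as a block, the unadjusted p by limma was 0.0081 for Spp1 and 0.0070 for Ctsz, and the adjusted p was 0.750 for both. They were the 2 of these 14 genes with an unadjusted p under 0.05 in that fit, against 6.6% of all genes.

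Pirb had the smallest unadjusted p of the members. It encodes an inhibitory receptor of myeloid cells for major histocompatibility class I molecules, also described on neurons in mouse. It ran from 3.69 in kainate 1 over a median of 3.73 to 3.77 in kainate 8, and from 3.66 over 3.69 to 3.72 in control 7. The groups overlapped at their edges, and the kainate rat was higher in 7 of 8 pairs, as were 4.54% of all genes in 7 or more. The difference was 0.042 ± 0.011 (SE, n = 8 per group) with a limma p of 0.0011 before and 1.00 after adjustment, and it stayed between 0.037 and 0.048 when any 1 library was left out. The authors' mean normalized count of this isoform was 13.3, a range in which the scale appears compressed. The gene belongs to a family of near-identical receptor genes whose reads may be shared.

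PU.1 binds purine-rich sites, and the letters GAGGAAG, a common form of its site, were searched on both strands in the 250 bases before the RefSeq start of each gene. Of 28 members with an entry, among them Itgam and Il6, which have no row in the table, 9 held them: Csf1r, Ctss, Il1a, Itgam, Laptm5, Pirb, Tlr4, Tnf and Trem2. They were present in 10.2% of 33469 promoters in the rat build GRCr8. Members were counted by gene, with a match in any entry of the gene, whereas this share was counted by promoter entry. For 3 microglial genes described above, 100 bases around the match are given on the gene's own strand, from RefSeq, with the match in capitals, to show where the letters lie. All 3 matches read in the reverse direction, CTTCCTC. A match is a description of letters and not a measured binding site.
Csf1r, chr18:56834129-56834228, plus strand: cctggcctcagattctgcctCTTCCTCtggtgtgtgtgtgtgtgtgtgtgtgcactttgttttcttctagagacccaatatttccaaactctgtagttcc
Ctss, chr2:185775296-185775395, plus strand: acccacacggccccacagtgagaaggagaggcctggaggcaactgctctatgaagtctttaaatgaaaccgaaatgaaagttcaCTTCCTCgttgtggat
Trem2, chr9:20151780-20151879, minus strand: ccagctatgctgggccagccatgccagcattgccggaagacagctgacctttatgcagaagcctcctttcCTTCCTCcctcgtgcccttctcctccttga

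The microglial markers differed more between replicate sets and single libraries than between kainate and control. Control 7 held the highest value of 14 of 19 markers, among them Aif1, P2ry12, Csf1r, Tmem119, all 3 C1q chains, Trem2, Tyrobp and Ctss, whereas 11.9% of all genes were highest in that library. Kainate 1 held the lowest value of 4 markers, Tmem119, C1qa, C1qc and Tyrobp (6.97% of all genes), and the highest of Cx3cr1 and Cd68. Kainate 3 held the lowest value of 4 others, Csf1r, Itgb5, C1qb and Laptm5 (7.99% of all genes). The labels give no batch, but libraries numbered 1 to 4 and 5 to 8 differed across the table, a split known from earlier work on these data. The median absolute difference between these 2 sets was 0.078 over the members and 0.069 over all genes, against 0.020 and 0.021 between kainate and control. Of the 19 markers 13 had a higher mean in libraries 5 to 8, and the median difference was 0.089, against 0.0064 over all genes. C1qa was 0.278 higher in libraries 5 to 8, C1qc 0.258, Tmem119 0.239, Tyrobp 0.235 and C1qb 0.160. For 1 member, C1qc, all libraries 5 to 8 lay above all libraries 1 to 4, as for 5.79% of all genes. Both sets hold 4 kainate and 4 control rats, and within them the median marker difference between kainate and control was -0.027 for 1 to 4 and -0.037 for 5 to 8. P2ry12 went opposite ways, at 0.095 in the first set and -0.11 in the second, a contrast that was not tested.

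**Figure D3:**
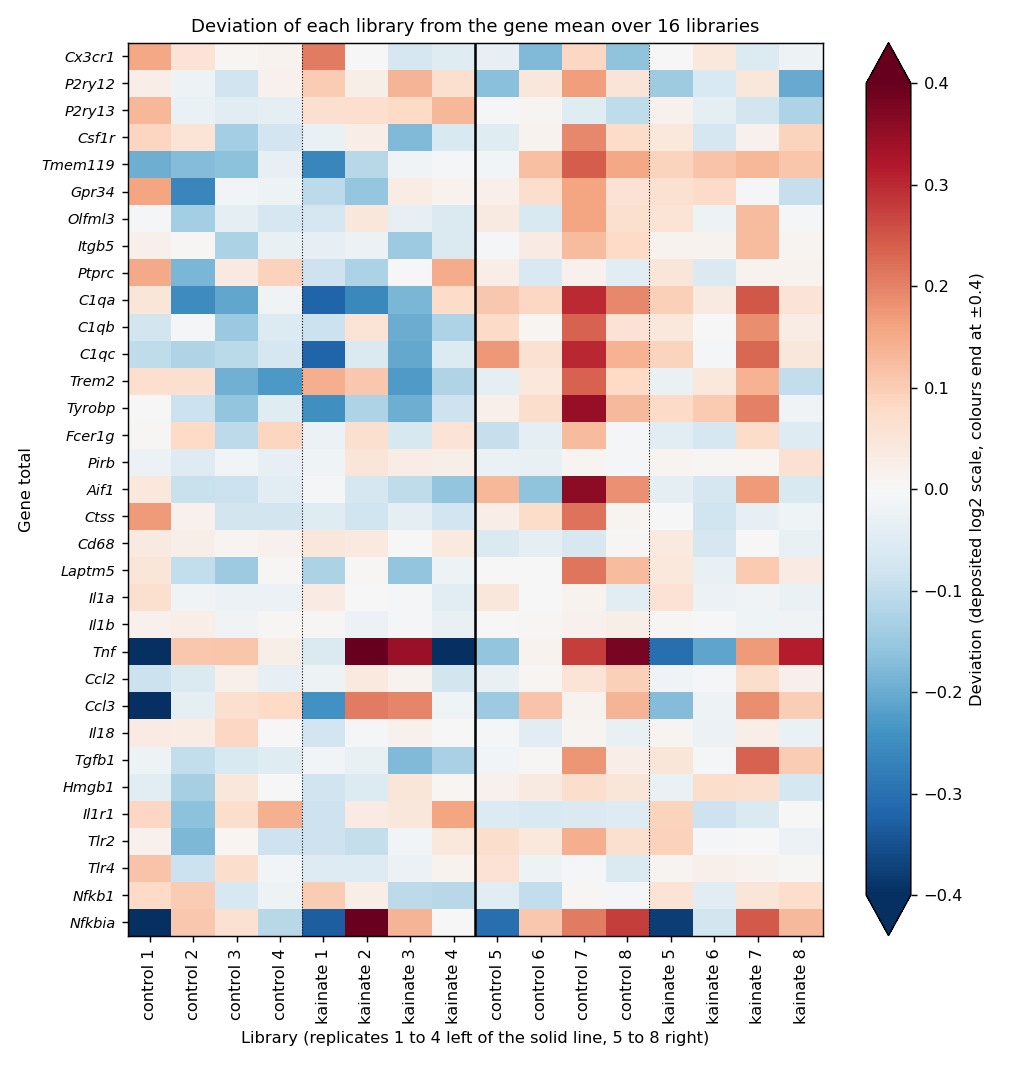
Deviation of each library (columns) from the gene's mean over 16 libraries, on the deposited log2 scale, for the 33 gene totals (rows), with colours that end at 0.4 log2 units either way. A solid line parts replicates 1 to 4 from 5 to 8. Control 7 is red for most markers, and the rows of Tnf, Ccl3 and Nfkbia hold the strongest colours, in libraries of both groups.

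Inflammatory mediators were balanced around 0. Of 14 mediators 13 had a row, 6 with a higher and 7 with a lower mean in kainate, and the median difference was -0.0042. The mean over the 13 ran from 7.19 to 7.35 in kainate and from 7.18 to 7.35 in control libraries. The median changed sign with single libraries, at -0.018 without kainate 7 and 0.0029 without kainate 4.

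Il1b, the classic early cytokine of activated microglia, had few reads. It ran from 3.48 over a median of 3.50 to 3.51 in kainate and from 3.49 over 3.52 to 3.53 in control libraries, with an authors' mean normalized count of 11.4. The groups overlapped, the kainate rat was lower in 6 of 8 pairs, and the difference was -0.020 ± 0.0072 (SE, n = 8 per group), with a limma p of 0.0115 before and 1.00 after adjustment. The unadjusted p of this isoform in the authors' deposited table was 0.122. Il1a, its sister cytokine, had a mean normalized count of 11.9 and a difference of -0.0042 ± 0.016 (SE, n = 8 per group). Both isoforms lie in the range in which the scale appears compressed. Il18, a cytokine released by the inflammasome, ran from 6.03 over 6.10 to 6.13 in kainate and from 6.07 over 6.11 to 6.19 in control libraries. Of 15 further genes of the interleukin-1 family and the inflammasome, 7 had a higher and 8 a lower mean, with a median difference of -0.0012 and 0 called.

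Tnf, Ccl3 and Nfkbia varied widely between animals within both groups. Tnf, which encodes tumour necrosis factor, ran from 7.73 in kainate 4 over a median of 8.73 to 9.11 in kainate 2, and from 8.17 in control 1 over 8.74 to 9.05 in control 8. The highest library was thus 2.61-fold above the lowest, both were kainate libraries, and the group medians were nearly equal. Ccl3, a chemokine that microglia release, ran from 7.57 in kainate 1 over 7.85 to 8.02 in kainate 2, and from 7.35 in control 1 over 7.85 to 7.94 in control 8. Nfkbia, the inhibitor of NF-kB that NF-kB itself induces, ran from 10.13 in kainate 5 over 10.57 to 10.90 in kainate 2, and from 10.04 in control 1 over 10.59 to 10.78 in control 8. In all 3 genes kainate 2 was the highest kainate library, control 8 the highest control library and control 1 the lowest control library. The differences were -0.063 ± 0.17 for Tnf, 0.058 ± 0.084 for Ccl3 and 0.031 ± 0.12 for Nfkbia (SE, n = 8 per group). The interval for Tnf, -0.43 to 0.31, was the widest of the members, and its difference became 0.068 when kainate 4 was left out. Without control 1, the differences of Ccl3 and Nfkbia became -0.0032 and -0.034.

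**Figure D4:**
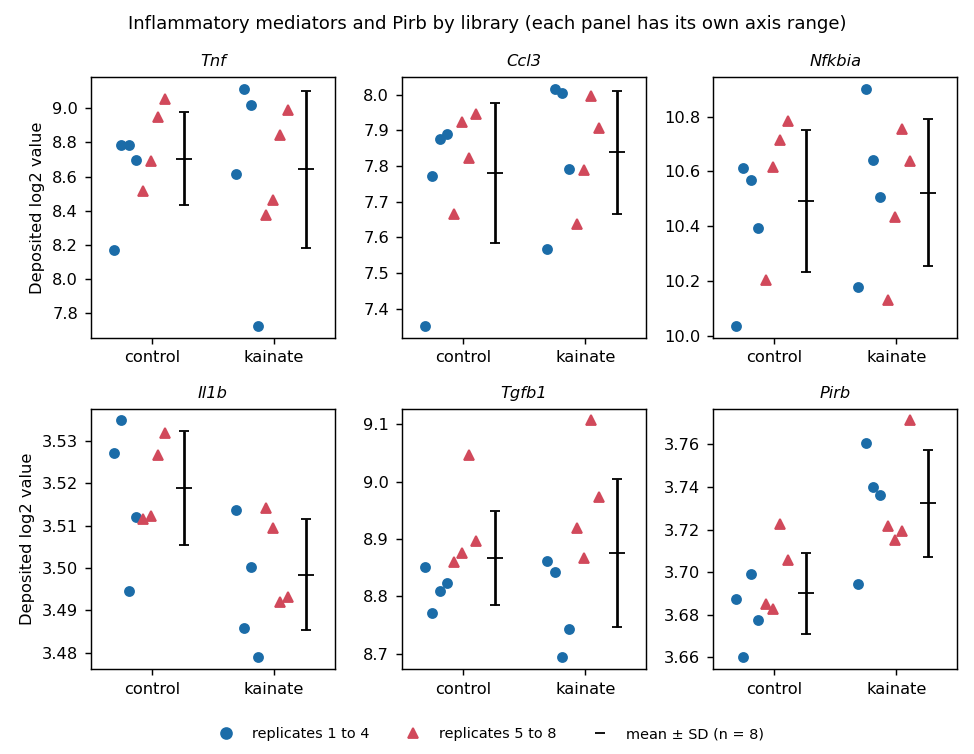
Deposited log2 gene totals of 5 inflammatory mediators and Pirb (vertical axes, each panel with its own range) in 8 control and 8 kainate libraries, with circles for replicates 1 to 4, triangles for 5 to 8 and the mean ± SD of each group. The groups overlap in every panel, and the panels of Il1b and Pirb cover a far narrower range than that of Tnf.

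The 3 genes shared some of their low and high libraries. All 3 were below their own means in control 1 and 5 and in kainate 1, 4, 5 and 6, and all 3 above them in kainate 2, 3, 7 and 8 and in control 3, 6, 7 and 8. Kainate 4 went apart, with the lowest Tnf of all libraries, 7.73, at a Ccl3 of 7.79 and an Nfkbia of 10.51, both close to the mean. Libraries of the same replicate number are taken as paired, so too few independent libraries remain within either replicate set for a correlation, and none is given.

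**Figure D5:**
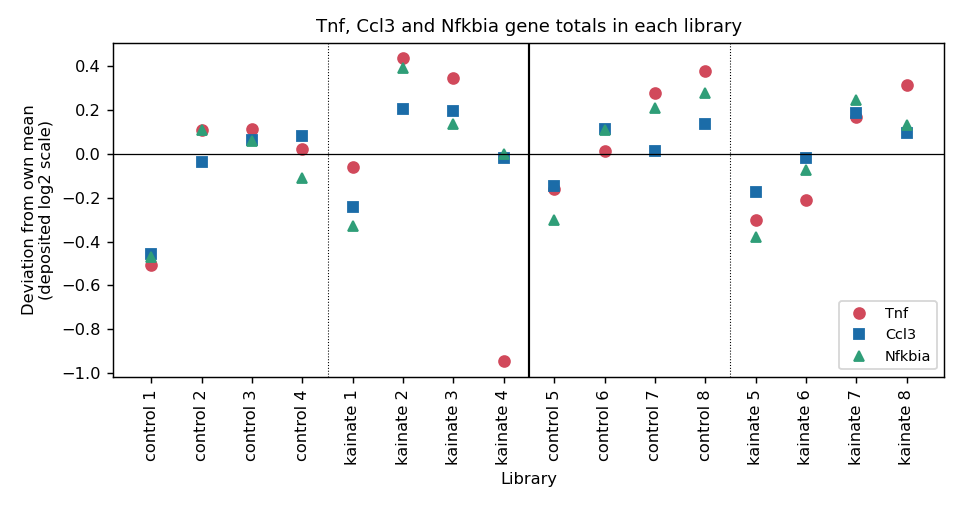
Deviation of Tnf, Ccl3 and Nfkbia gene totals from their own means over 16 libraries (vertical axis, deposited log2 scale) in each library (horizontal axis), with replicates 1 to 4 left and 5 to 8 right of the solid line. The 3 genes are low together in control 1 and high together in kainate 2, and Tnf alone is low in kainate 4.

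NF-kB dimers bind a site of the form GGGA, any 2 bases, then TTCC. On both strands of the 250 bases before the start, 2 of 28 members held these letters, Nfkbia and Il6, which has no row in the table. They were present in 1.08% of 33469 promoters, again counted by entry. The 100 bases before Nfkbia, one of the 3 members of widest spread, and 100 bases of the Tnf promoter are given below from RefSeq, build GRCr8, with the NF-kB form, which reads in the reverse direction, in capitals for Nfkbia and the PU.1 form, CTTCCTC, in capitals for Tnf. The NF-kB letters end 21 bases before the Nfkbia start, and the Tnf promoter held none in this form. No match says only that these letters are not in this window.
Nfkbia, chr6:78597073-78597172, minus strand: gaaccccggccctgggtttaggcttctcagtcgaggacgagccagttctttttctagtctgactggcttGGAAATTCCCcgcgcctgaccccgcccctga
Tnf, chr20:3626504-3626603, plus strand: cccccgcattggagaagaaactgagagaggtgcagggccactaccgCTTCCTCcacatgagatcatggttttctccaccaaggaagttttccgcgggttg

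For the remaining mediators the group means lay close together. Tgfb1, an anti-inflammatory cytokine on which microglial identity depends, ran from 8.69 over a median of 8.86 to 9.11 in kainate and from 8.77 over 8.85 to 9.05 in control libraries, a difference of 0.0089 ± 0.052 (SE, n = 8 per group). Hmgb1, a nuclear protein that acts as an alarm signal outside the cell, ran from 8.65 over 8.72 to 8.80 in kainate and from 8.59 over 8.75 to 8.79 in control libraries. The overlap was wide for both, and Hmgb1, with a difference of -0.010 ± 0.034 (SE, n = 8 per group), has near-identical processed copies in the genome that may share its reads. The monocyte-attracting chemokine gene Ccl2 differed by 0.0071 ± 0.024 (SE), the interleukin-1 receptor gene Il1r1 by 0.024 ± 0.044 (SE), and the pattern receptor genes Tlr2 and Tlr4 by -0.020 ± 0.041 (SE) and -0.015 ± 0.025 (SE), each over 8 rats per group. Nfkb1, a subunit of NF-kB, differed by 0.010 ± 0.039 (SE, n = 8 per group). None of the other lists of inflammatory genes held a called gene by limma. Of 22 measured Toll-like receptor and NF-kB genes 13 had a higher mean, of 16 interferon-response genes 12 had a lower mean, and of 11 chemokines and receptors 7 had a higher mean, with median differences of 0.011, -0.016 and 0.0024.

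The authors also tested KEGG pathways for enrichment. In the authors' deposited table the adjusted p was 0.877 for Toll-like receptor signalling, 0.746 for NF-kappa B signalling, 0.637 for TNF signalling and 0.405 for chemokine signalling.

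No difference in isoform usage was called in the 5 members with more than 1 isoform. Csf1r had 3 isoforms: ENSRNOT00000049357 held 55.8% ± 3.1 (SD, n = 8) of the summed values in kainate and 57.3% ± 1.6 (SD, n = 8) in control rats, and ENSRNOT00000079360 held 40.9% ± 3.2 (SD, n = 8) and 39.5% ± 1.7 (SD, n = 8). Csf1r was therefore the member with 2 isoforms of similar share, and neither group mean lay outside the other group's spread. In Aif1, Itgb5, Il1r1 and Ptprc 1 isoform dominated, with 95.1%, 94.6%, 88.5% and 96.7% of the summed values in kainate and 95.3%, 94.8%, 88.4% and 96.8% in control rats. Of these 5 genes 0 had an unadjusted p under 0.05 in limma's test of usage, against 1.93% of 3774 genes, and the smallest was 0.372, for Aif1. A minor Il1r1 isoform, ENSRNOT00000087112, had a difference of -0.028 ± 0.012 (SE, n = 8 per group), with a limma p of 0.0336 before and 1.00 after adjustment. Its mean normalized count was 5.95, the difference was -0.057 in libraries 1 to 4 and 0.0018 in libraries 5 to 8, and its p in the authors' deposited table was 0.0920. At an unadjusted p under 0.05 stood 4 of 41 isoforms (9.76%, against 1.5% of all isoforms): this one, whose gene total was not at that level, and those of Ctss, Il1b and Pirb. With the replicate number as a block 5 of 41 did (12.2%, against 6.13% of all isoforms).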

How the data were processed

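Bulk RNA sequencing of 8 kainate and 8 control rats was deposited as 1 isoform table. The per-library values are log2 values deposited by the authors. The sources used here do not give the transform; near-equal library quartiles and an isoform-specific floor were seen in them. Per the submitters' processing notes, Trim Galore, RSEM, DESeq2, SAMtools and GATK were named; the same sources give no versions, roles, build or annotation. Mean normalized counts (a signal per isoform), log2 fold changes, ratios, Wald scores and p-values are the authors', per the file headers, and pathway p-values are the authors' too. No total count per library was used, so the depth of each library is unknown and no interval for counting error was set.

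The planned count test could not be run on log2 values. In its place limma 3.58.1 (R 4.3.3; trend and robust) was fitted to the deposited values of all isoforms, to gene totals (log2 of summed powers of 2) and, with diffSplice, to isoform usage. Benjamini-Hochberg adjustment ran over the whole table, with a threshold of 0.05. Labels give the libraries of each group replicate numbers 1 to 8 without saying what a number marks. Deviations of same-numbered libraries correlated across isoforms in all 8 pairs (r = 0.13 to 0.78), each above 0.1. On this basis the numbers were taken to pair libraries, and a fit with the number as a block was the alternative. Differently numbered libraries were not compared, so pairing by number is an assumption. Whether the split between libraries 1 to 4 and 5 to 8 accounts for these correlations was not tested. P-values set a difference in group means against the spread between these rats, which limma moderates across genes. In the fit without the block that spread includes the one between libraries 1 to 4 and 5 to 8. Alternatives were quantile scaling, a minimum of 20 normalized counts, other fit options, libraries 1 to 4 or 5 to 8, and each library left out. The members and lists were chosen with earlier results of these data known. Named genes were 14 defining members, the 4 markers and 4 mediators of smallest p, and isoforms at an unadjusted p under 0.05; others are named by role. Promoters are RefSeq's, build GRCr8, matched by symbol for 28 of 36 members.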

Additional observations from a re-analysis of the deposited data

Results flagged for a closer look

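In 9 of 96 groups of 8 libraries tested, 1 library stood apart from the other 7 by a gap large for the group's range (Dixon's criterion). About 1 in 20 would do so among independent groups of normally spread values. These groups are not independent, since a gene total and its main isoform can both count, so the 9 cannot be read as an excess. Aif1 was highest in kainate 7, at 10.3 with the next library at 10.12, and so was its main isoform ENSRNOT00000001135, at 10.24 with the next at 10.04. Cx3cr1 was highest in kainate 1, at 10.34 with the next at 10.18. Tgfb1 was highest in control 7, at 9.05 with the next at 8.90, and Ccl3 was lowest in control 1, at 7.35 with the next at 7.66. The other 4 were in control 2, a library that held the highest value of 13.1% and the lowest of 15.7% of all genes. Gpr34 was lowest there, at 9.28 with the next at 9.52, and so was the Csf1r isoform ENSRNOT00000088988, at 7.44 with the next at 7.64. The minor Itgb5 isoform ENSRNOT00000076955 was highest there, at 7.03 with the next at 6.30, and the minor Ptprc isoform ENSRNOT00000029878, at 3.24 with the next at 3.16.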

How the results depend on the processing

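Over 24 other settings, 16 of which left out 1 library each, 0 members were called at an adjusted p under 0.05 by limma; the smallest adjusted p in any was 0.723 for gene totals and 0.767 for isoforms. Counts at an unadjusted p under 0.05 did depend on the setting. For isoforms, 4 in the fit reported, the count was 2 with libraries 1 to 4 only, 1 with libraries 5 to 8 only, 1 with a minimum of 20 normalized counts and 2 with no trend and no robust fit, and it ran from 2 to 4 when 1 library was left out. For gene totals, 3 in the fit reported, it was 5 with the replicate number as a block, 1 with libraries 1 to 4 only and 1 with the count minimum, and it ran from 2 to 3 when 1 library was left out. The block changed no other call, since none was made in either fit. The sign of the difference held in every setting for 13 of 33 members and changed in at least 1 of the 8 other settings for 17 and in at least 1 left-out fit for 16. The marker median ran from -0.044 to -0.0080 and the mediator median from -0.018 to 0.0029 over the fits with 1 library left out. The isoforms of Il1a, Il1b and Pirb average under 20 normalized counts, so the fit with that minimum left these genes out. The cause of the shifts between settings was not tested.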
